A study of Mus musculus with 18 samples.

Results

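Same-numbered libraries of the N gate and the mature luminal (ML) gate of mouse mammary gland were compared as 9 pairs, 3 in each of 3 genotypes, and the genes described here are those that moved the same way in all 9. All 18 libraries of the series entered. Of 18298 genes that passed the filter on low counts, 2526 (13.8%) moved one way in every pair: 1232 (6.73%) stood higher and 1294 (7.07%) lower in N than in ML. These genes were chosen by their measured direction, so their counts and sizes are a description, and no test is given of the choice itself.

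The mice were wild type (WT) or carried a mutated Esr1, D542G or Y541S, in the gene of estrogen receptor alpha. Every mouse, aged 6 months, bore pellets of the hormones E2 and P4 and was given giredestrant, an antagonist of that receptor, at 30 mg/kg p.o. daily over 4 days, so controls without the antagonist were not part of the comparison. Each of the 6 groups (a genotype and a gate) held 3 libraries, of 34797778 to 49507144 gene counts. The study's title asks whether cells induced by blocking the receptor also occur, rarely, in WT glands. The tissue source of the N libraries is also labelled as mature luminal cells, and the labels name no surface marker for either gate. They call replicates biological but do not say whether same-numbered libraries share a mouse. The p-values of the paired fit measure the spread of N minus ML differences between same-numbered pairs within a genotype. Whether that is a spread between mice is not known.

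The mammary duct has an inner luminal layer, made of hormone-sensing cells that carry the estrogen and progesterone receptors and of secretory progenitors, and an outer basal layer of contractile myoepithelial cells that rests on the basement membrane. Basal identity is kept by p63 (Trp63) and SLUG (Snai2), and luminal identity by GATA3, FOXA1 and ELF5. The layers talk through paired systems in which one makes a ligand and the other its receptor, among them Notch, Wnt, ErbB and TGF-beta signalling.

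Levels are CPM, a gene's counts scaled to library size by TMM, given as lowest to highest over the 9 libraries of a gate with the median. A pair difference is N minus ML on log2(CPM + 1). A log2 fold change ± standard error is the mean of the 3 genotypes' gate effects in an edgeR quasi-likelihood fit with a term for each pair (n = 9 pairs), and genes at a Benjamini-Hochberg adjusted p under 0.05 are called. In that fit 4903 genes (26.8%) were called, 2417 higher (13.2%) and 2486 lower (13.6%), around a median log2 fold change of −0.04 over all genes tested. Of the genes that moved one way in all 9 pairs, 1179 of the higher and 1223 of the lower were called, and 53 and 71 were not. The fit uses the same pairs that chose these genes. Their calls and adjusted p are therefore no separate support for them. In a bulk library, fewer cells of a type and less RNA per cell cannot be told apart.

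**Figure D1:**
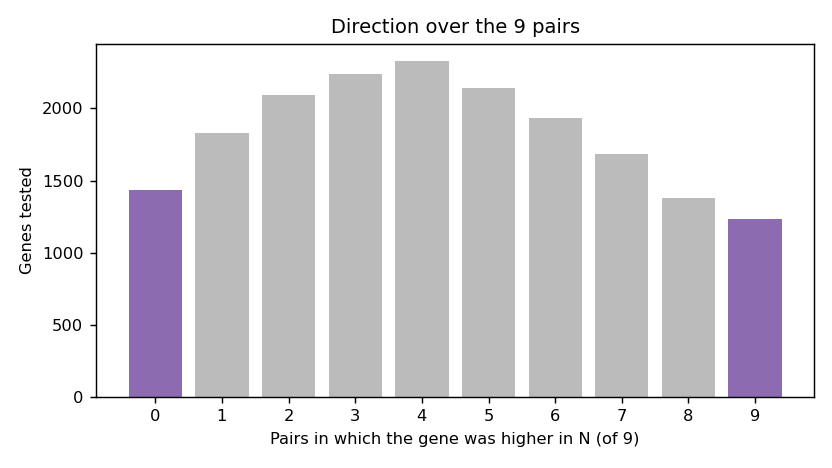
Number of pairs (of 9) in which each of the 18298 tested genes was higher in N. The right bar holds the 1232 genes higher in all 9 pairs, and the left bar 1433 genes higher in none, 1294 of them lower in all 9 and the others tied in at least 1 pair.

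A smaller set moved at least 2-fold on log2(CPM + 1) in every pair, 201 genes higher (1.1% of those tested) and 102 lower (0.557%). The gates did not overlap, with every N library above or below every ML library, for 271 higher (1.48%) and 235 lower genes (1.28%). Described first are the 12 higher and 12 lower called genes with the largest weakest pair, at an average log2 CPM of at least 3. None of them overlapped between gates.

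The gene at the head of the higher group was Col17a1, collagen XVII, a transmembrane part of the hemidesmosome that anchors basal cells (ENSMUSG00000025064, chr19:47646344-47692094, minus strand of GRCm38). It stood at 219 to 2575 CPM in N (median 775) and at 0.713 to 65.4 CPM in ML (median 7.74). Its smallest pair difference was 4.92, in WT 1, and its largest 9.29, in Y541S 1. The log2 fold change was 6.4 ± 0.62 (adjusted p = 1.99e-04). The N library with the least Col17a1, WT N 3, still held more than 3 times the level of the highest ML library.

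Tgfbi, a secreted matrix protein induced by TGF-beta, stood at 46.4 to 1018 CPM in N (median 105) and 1.14 to 28.1 in ML (median 5.08). Its log2 fold change was 5.07 ± 0.18 (adjusted p = 4.24e-06), and 5.4, 4.72 and 5.10 in WT, D542G and Y541S. Col7a1, the collagen of the anchoring fibrils beneath the basement membrane, stood at 12.1 to 73.4 CPM in N and 0.0256 to 2.79 in ML, a log2 fold change of 6.05 ± 0.48.

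Transcription factors of the basal layer led as well. Snai2, the zinc-finger repressor SLUG, stood at 36.6 to 180 CPM in N (median 103) against 0.38 to 8.7 in ML (median 3.45), a log2 fold change of 5.34 ± 0.45 (adjusted p = 1.12e-04). Bcl11b, a zinc-finger factor of basal cells, stood at 36.2 to 229 CPM against 0 to 12.8 (5.80 ± 0.72). For Snai2 the 3 genotypes gave 4.93, 5.17 and 5.90, and its smallest pair difference was 3.86.

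The Notch ligands Dll1 and Jag2, which activate receptors on the neighbouring cell, were in the same group. Dll1 stood at 38.5 to 182 CPM in N (median 105) and 0.615 to 9.21 in ML (median 3.35), and its log2 fold change was 5.20 ± 0.43 (adjusted p = 1.11e-04). Jag2 stood at 101 to 550 CPM in N and 0 to 37.8 in ML (5.52 ± 0.72). Sfrp1, a secreted Wnt inhibitor, stood at 60.2 to 1191 CPM in N and 1.54 to 31.9 in ML (5.32 ± 0.52).

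The remaining 4 of the 12 higher genes were Krt15, a basal keratin (4.13 ± 0.21), the calcium-dependent kinase Camk4 (4.89 ± 0.39), the cytochrome P450 Cyp2j9 (4.61 ± 0.40) and Slc6a2, the noradrenaline transporter. Slc6a2 stood at 9.55 to 99.7 CPM in all 9 N libraries and at 0 to 3.05 in ML, with a median of 0.025. Its fitted log2 fold change was 8.93 ± 0.86 with ML libraries at or near 0, and its smallest pair difference was 3.40. Cyp2j9 belongs to a family of similar genes, so its reads may be shared with its copies.

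**Figure D2:**
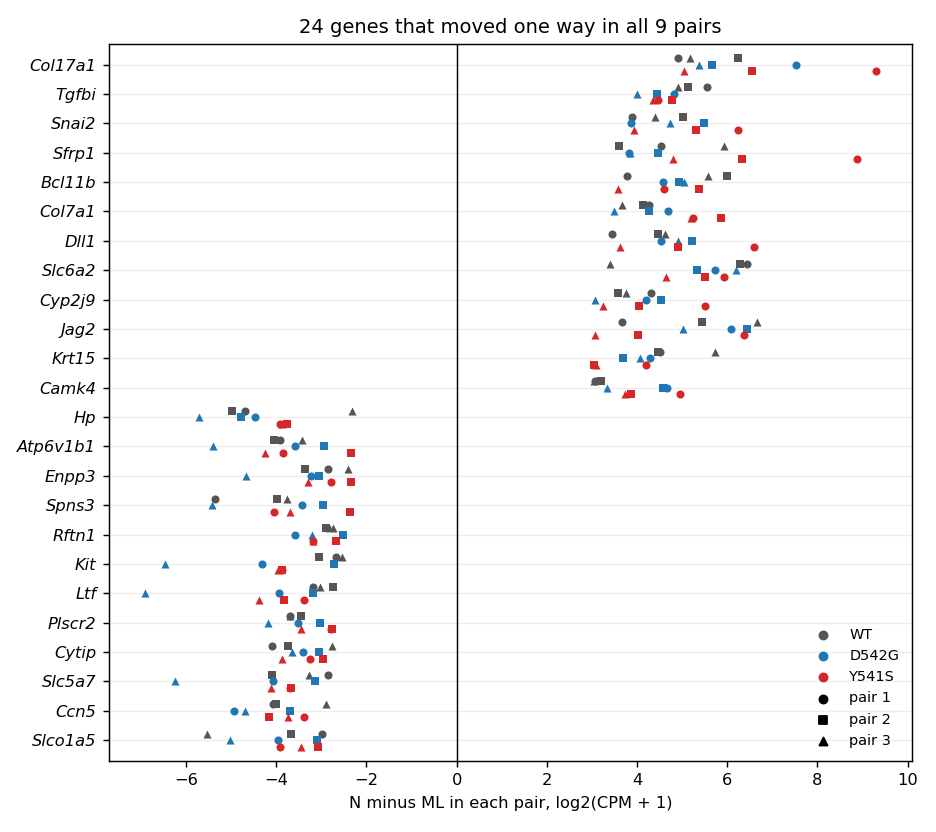
N minus ML in each of the 9 pairs, on log2(CPM + 1), for the 12 higher and the 12 lower genes with the largest weakest pair; colour gives the genotype and shape the pair number. Every point of the upper 12 lies at 3.05 or more and every point of the lower 12 at −2.31 or less, and D542G 3 lies far to the left for Kit, Ltf and Slc5a7.

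On the lower side, Kit, the receptor kinase of luminal progenitors (ENSMUSG00000005672, chr5:75574916-75656722, plus strand), stood at 3.05 to 61.4 CPM in N (median 36.7) and 179 to 875 in ML (median 364). Its log2 fold change was −3.77 ± 0.37 (adjusted p = 2.07e-04). Ltf, lactoferrin, an iron-binding milk protein, stood at 38.4 to 1020 CPM in N (median 327) and 1744 to 8409 in ML (median 4702), a change of −3.81 ± 0.37 (adjusted p = 2.03e-04). For both genes pair D542G 3 was the most extreme, with differences of −6.46 and −6.90, and the other 8 pairs lay between −4.31 and −2.55 for Kit and between −4.37 and −2.73 for Ltf.

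Several of the lower genes move ions and small molecules. Slco1a5, an organic anion carrier, stood at 0 to 14.7 CPM in N and 45.1 to 131 in ML (−4.38 ± 0.64). Slc5a7, the choline transporter, stood at 0 to 14.5 against 31.9 to 196 CPM (−4.32 ± 0.60). Atp6v1b1, a subunit of the proton pump of acid-secreting cells, stood at 11.4 to 174 against 236 to 882 CPM (−3.80 ± 0.31), and Spns3, a lipid transporter of the Spinster family, at 0.0235 to 17 against 39.6 to 91.1 CPM (−4.44 ± 0.62).

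The others were Ccn5, a secreted matricellular protein (−4.12 ± 0.22), Hp, the haemoglobin-binding protein haptoglobin (−4.38 ± 0.33), Plscr2, a phospholipid scramblase (−3.55 ± 0.16), Cytip, an adaptor of cytohesins (−3.51 ± 0.18), Enpp3, an ectonucleotidase (−3.23 ± 0.22), and Rftn1, a lipid raft protein (−3.06 ± 0.14). Rftn1 and Plscr2 each had an adjusted p of 1.75e-05. Rftn1 stood at 7.13 to 48.1 CPM in N and 96.3 to 313 in ML, and the 3 genotypes gave −2.90, −3.21 and −3.08. Slco1a5 and Plscr2 have close relatives in the genome, and counts of such genes may be shared between copies.

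Markers of the layers were counted to describe the gates. Their lists were chosen with earlier results of these data known, so the counts are no independent check. Over all genes tested, 13.2% were called higher and 13.6% lower, and 6.73% were higher and 7.07% lower in all 9 pairs. The counts of every list below stand beside these shares. Of 16 tested genes of basal identity, 14 were called higher and 2 lower, and 12 were higher in all 9 pairs, with a median log2 fold change of 3.94. Krt14, the keratin of basal cells, stood at 2170 to 19469 CPM in N (median 11998) and 50.1 to 3862 in ML (median 113), a change of 5.43 ± 0.43 (adjusted p = 9.57e-05). Its partner Krt5 changed by 5.58 ± 0.63, Trp63 by 5.28 ± 0.63 and Cdh3, P-cadherin, by 5.36 ± 0.67. The gates overlapped for Krt14, with 3862 and 2925 CPM in WT ML 1 and WT ML 2 and 2170 in WT N 3, but N was higher than ML in each pair. They also overlapped for Krt5 and Trp63. The 2 lower genes were Sox9 (−0.82 ± 0.13) and Sox10 (−1.64 ± 0.33), transcription factors that progenitors of either layer can express.

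Genes of the epidermis moved with the basal ones in some libraries. The tested genes of keratinocyte differentiation summed to 8352, 16750 and 17189 CPM in WT N 1, WT N 2 and Y541S N 3 and to 518 to 3748 CPM in the other 6 N libraries. The basal identity genes summed to 57577, 66467 and 43876 CPM in those 3 libraries and to 9901 to 22908 CPM in the other 6. In ML the same 3 pairs held the most basal RNA, 12394, 9418 and 5728 CPM against 1490 to 2531, and the most RNA of hair follicle genes, 6578, 1374 and 4216 CPM against 22.9 to 194. The Krt14 difference was 1.84, 2.73 and 4.54 in these 3 pairs and 4.51 to 7.89 in the other 6. Of the N libraries, WT N 1, WT N 2 and Y541S N 3 also held the most Krt15, Tgfbi, Col17a1, Snai2, Bcl11b and Slc6a2. They did not for Sfrp1, Col7a1, Dll1, Cyp2j9, Jag2 and Camk4. Krt15 stood there at 24571, 24975 and 8404 CPM against 1306 to 3130 in the other N libraries, and Tgfbi at 872, 1018 and 482 against 46.4 to 150. The part of epidermal RNA in these genes and in the other basal results was not tested. Of the keratinocyte list 11 of 18 tested genes were called higher and 0 lower, and 4 were higher in all 9 pairs. Without the pair terms 5 were called higher.

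**Figure D3:**
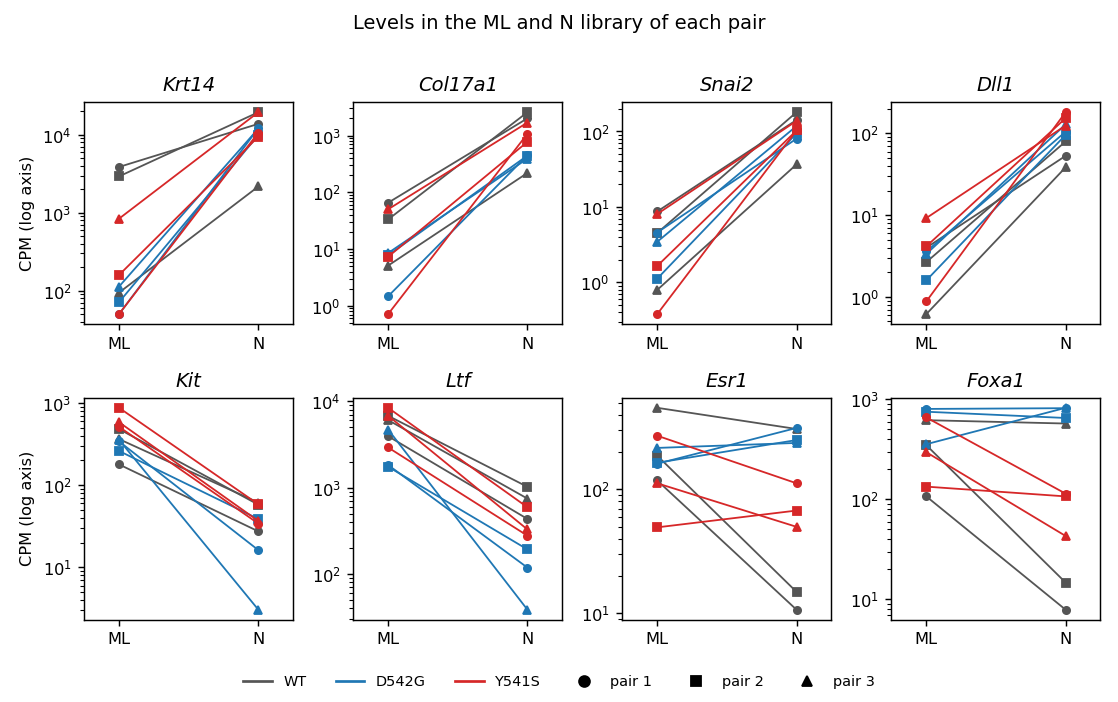
CPM on a log axis in the ML and the N library of each pair for 8 genes; each line is a pair, coloured by genotype. Lines rise in all 9 pairs for Krt14, Col17a1, Snai2 and Dll1 and fall in all 9 for Kit and Ltf, while those of Esr1 (4 up, 5 down) and Foxa1 (2 up, 7 down) cross.

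Genes of attachment to the basement membrane were called higher in N in several groups. Of 22 tested basement membrane genes 13 were called higher and 2 lower, and 11 were higher in all 9 pairs (median 1.59). The laminin chains Lama3 and Lamb3 were among the 11. Lama3 stood at 74.3 to 374 CPM in N and 3.9 to 29.8 in ML (4.07 ± 0.34), and Lamb3 at 188 to 972 against 30.7 to 173 (3.31 ± 0.31). N and ML libraries did not overlap for either chain.

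The 2 called lower were also laminin chains, Lama5 (−0.56 ± 0.17, adjusted p = 0.0381) and Lamb2 (−0.49 ± 0.16, adjusted p = 0.0484), each lower in 7 of 9 pairs. The call was lost in 7 of 15 alternatives for Lama5 (adjusted p of up to 0.129) and in 12 of 15 for Lamb2 (up to 0.131). Both were lost without the pair terms. Of 20 integrin and hemidesmosome genes, 10 were called higher and 0 lower, 7 of them higher in all 9 pairs (median 0.54). Itga3, an integrin chain that binds laminins, stood at 163 to 426 CPM in N and 64.7 to 133 in ML (1.61 ± 0.15). Itgb4, the hemidesmosomal integrin, changed by 2.18 ± 0.23, and Dst, the plakin that links it to keratin, by 1.36 ± 0.13.

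Of 27 genes of the interstitial matrix 17 were called higher and 1 lower, 12 of them higher in all 9 pairs (median 2.80). Col16a1, a fibril-associated collagen, stood at 84.4 to 378 CPM in N and 7.74 to 24.4 in ML and gave a change of 3.66 ± 0.13 (adjusted p = 4.24e-06). Among 20 matrix proteases and inhibitors 11 were called higher and 1 lower. The gelatinase Mmp2 stood at 68.5 to 1100 CPM against 1.61 to 17.3 (5.10 ± 0.37), and the secreted protease Adamts1 at 801 to 7274 against 84.3 to 321 (3.52 ± 0.24). The 1 lower was the membrane-bound Mmp15, at 13.4 to 88.6 CPM in N and 93.1 to 157 in ML (−2.0 ± 0.19), lower in all 9 pairs.

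Contractile genes were called higher for 13 of 20 and lower for 1, with 10 higher in all 9 pairs (median 2.06). Oxtr, the oxytocin receptor that triggers milk ejection, stood at 45.3 to 1808 CPM in N (median 81.2) and 2.11 to 37.2 in ML (median 19.9), a change of 3.46 ± 0.31. Smooth muscle actin, Acta2, changed by 3.19 ± 0.34, the myosin light chain Myl9 by 2.80 ± 0.28 and smoothelin, Smtn, by 3.14 ± 0.22. Summed over the list, N libraries held 8255 to 14640 CPM in Y541S, 3331 to 4042 in D542G and 2004 to 3063 in WT, and ML libraries 1261 to 1769 in all genotypes. The genotype values of Acta2 were 5.17 in Y541S, 1.82 in D542G and 2.57 in WT, but no difference between genotypes was called (adjusted p = 0.277). The 1 called lower was Mrtfb, a coactivator of contractile genes (−0.76 ± 0.22, adjusted p = 0.0319), and the call was lost when any of 7 of the 9 pairs was left out.

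Genes tied to the mesenchymal transition, a program in which epithelial cells loosen and migrate, were called higher for 9 of 16 and lower for 0, with 6 higher in all 9 pairs (median 1.31). They included Snai2, Mmp2, Tgfbi and the receptor kinase Axl, which stood at 83.7 to 1272 CPM in N and 16.6 to 62.8 in ML (4.10 ± 0.29). The classical factors Zeb1 (0.07 ± 0.44, adjusted p = 0.937) and Twist1 (0.84 ± 0.96, adjusted p = 0.572) were not called. E-cadherin, Cdh1, stood at 527 to 1726 CPM in N and 657 to 1703 in ML and was not called either (−0.35 ± 0.19, adjusted p = 0.20). The basal layer itself expresses several members of this list, and the list shares Snai2 and Vim with basal identity.

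Of 16 luminal keratins and surface genes 14 were called lower and 0 higher, and 10 were lower in all 9 pairs (median −2.80). Muc1, a mucin of the luminal surface, stood at 3.39 to 80.2 CPM in N (median 10.4) and 110 to 373 in ML (median 177), a change of −4.10 ± 0.27 (adjusted p = 5.20e-05). Cd14, a receptor for bacterial lipopolysaccharide, changed by −3.31 ± 0.30, the claudin Cldn3 by −3.39 ± 0.41 and Epcam by −1.43 ± 0.17. Krt8 and Krt18, the paired luminal keratins, changed by −2.42 ± 0.37 and −2.69 ± 0.42. Krt18 stood at 194 to 4581 CPM in N and 3578 to 7633 in ML, and the overlap came from WT N 3.

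Luminal progenitor genes were called lower for 10 of 13 and higher for 0, and 9 were lower in all 9 pairs (median −3.31). Beside Kit and Ltf these were Elf5, the transcription factor of alveolar fate (−4.18 ± 0.42), Aldh1a3 (−4.05 ± 0.42), the secreted Mfge8 (−2.71 ± 0.14) and Lcn2 (−3.29 ± 0.26), and Hey1, a target of Notch (−2.48 ± 0.23). Mfge8 stood at 500 to 2262 CPM in N and 3051 to 14200 in ML, with no overlap. Summed over the list, N libraries held 1274 to 5125 CPM and ML libraries 9116 to 33118. WT N 3 held 1911 CPM, within the range of the other N libraries, although it held 22180 CPM of luminal keratins and surface genes against 3985 to 8654 in those.

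Of 19 tested hormone-sensing genes 10 were called lower and 2 higher, and 6 were lower in all 9 pairs (median −1.30). WT N 3 stood apart, with a sum over the list of 15551 CPM against 1610 to 5007 in the other 8 N libraries and 17261 in WT ML 3. That sum includes Krt8, Krt18, Prom1 and Ly6a, which were also counted among the luminal keratins and surface genes. Krt8, Krt18 and Prom1 were among the 6, as was Gata3, which is also in the list of luminal transcription factors. Prlr, the prolactin receptor, stood at 55.4 to 1215 CPM in N (median 94.1) and 367 to 1878 in ML (median 1264), a change of −3.08 ± 0.43, and Gata3 changed by −1.32 ± 0.14, both lower in all 9 pairs. Calca, the calcitonin gene induced by progesterone, stood at 0 to 3.09 CPM in N and 0.0769 to 155 in ML (−5.41 ± 0.50).

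Esr1 stood at 10.7 to 313 CPM in N (median 112) and 49.4 to 455 in ML (median 164), and was higher in N in 4 pairs and lower in 5 (−0.91 ± 0.34, adjusted p = 0.0767). Its pair differences were −3.34, −3.56 and −0.57 in WT, 0.96, 0.61 and 0.13 in D542G and −1.27, 0.44 and −1.15 in Y541S. All 3 WT pairs were lower and all 3 D542G pairs higher, but the test for a difference between genotypes was not passed (adjusted p = 0.34). Pgr, the progesterone receptor, was lower in 8 of 9 pairs (−1.18 ± 0.44, adjusted p = 0.0766). Esr1 was called lower in 4 of 15 alternatives (DESeq2, limma-voom, without WT 3 and without Y541S 2, with adjusted p of 0.00323 to 0.529 over all 15). Pgr was called lower in 3, which were the same but for Y541S 2 (0.00738 to 0.449 over all 15). Foxa1, which opens chromatin for estrogen receptor, was lower in 7 of 9 (−1.52 ± 0.49, adjusted p = 0.0477), and that call was lost in 10 of 15 alternatives (adjusted p 8.15e-04 to 0.342).

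Targets of the estrogen receptor were split, 7 of 19 called higher and 8 lower, with 3 higher and 4 lower in all 9 pairs (median −0.18). Ccnd1, cyclin D1, stood at 33.2 to 136 CPM in N and 238 to 506 in ML (−2.56 ± 0.20), and Rasd1 changed by −1.21 ± 0.10. On the other side Cxcl12, a chemokine, stood at 119 to 1096 CPM in N and 9.18 to 61.4 in ML (4.27 ± 0.35), and Igfbp4 changed by 3.46 ± 0.21. Greb1, a direct target in breast cells, was called higher (1.77 ± 0.30, adjusted p = 0.00295) in 7 of 9 pairs, the exceptions being WT 1 and WT 2. Areg, amphiregulin, was higher in 5 pairs and lower in 4 (−0.11 ± 0.33, adjusted p = 0.86). Of 15 progesterone targets 3 were called higher and 6 lower, beside 13.2% and 13.6% of all genes tested, with 3 and 4 in all 9 pairs (median −0.56). The lower ones included Rspo1, a Wnt amplifier made under progesterone (−2.43 ± 0.25).

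Transcription factors of luminal cells were called lower for 11 of 25 and higher for 4, with 6 lower in all 9 pairs and 1 higher (median −0.83). Cited4 (−2.28 ± 0.29) and Stat5b (−0.57 ± 0.14), which carries the prolactin signal, were among the 6. The 1 higher was Tfap2c, an AP-2 factor that both layers can express, at 52.7 to 360 CPM in N and 32.6 to 161 in ML (1.21 ± 0.25).

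Since Snai2 encodes a repressor that binds the E-box CAGGTG, this motif was searched on both strands, among 8 motifs chosen with the results above known. The window was the 250 bases before the first listed RefSeq start of each gene. Other starts of a gene were not used, and the first listed one need not be its main start. Entries were found for 12594 of the tested genes. The motif was present in 16.2% of these, in 14.9% of 877 genes higher in all 9 pairs and in 22.8% of 944 lower in all 9. Among genes moved at least 2-fold in every pair it was present in 26 of 138 higher (18.8%) and 20 of 65 lower (30.8%), and in 17.1% of all 27025 genes of the table. The median G and C content of these windows was 62% for the higher, 59.2% for the lower and 58.8% for all tested genes. A half-site of the p53 family, to which p63 and p73 belong, was present in 6.31% of tested genes, 7.3% of the higher and 4.66% of the lower. The 6 other motifs were present in the higher, the lower and all tested genes in these shares. The CArG box was in 0.912%, 0.953% and 1.15%, AP-1 (TGANTCA) in 6.27%, 3.71% and 5.03%, and the estrogen response element in 0%, 0.106% and 0.0238%. The forkhead motif (TGTTTAC) was in 2.96%, 1.69% and 2.1%, the GATA motif (AGATAA) in 5.47%, 6.25% and 6.46%, and the ETS motif (GGAAGT) in 18.1%, 20.4% and 22.2%. In the sets moved at least 2-fold in every pair, the p53 half-site was in 7.97% of the higher and 1.54% of the lower. In the same order the CArG box was in 0.725% and 1.54%, AP-1 in 2.17% and 3.08%, and forkhead in 2.9% and 4.62%. GATA was in 6.52% and 7.69%, ETS in 15.2% and 23.1%, and the estrogen response element in 0% and 0%. AP-1 and forkhead changed order from the larger sets, and these small sets rest on few matches. These shares are descriptions of letters in a window and say nothing of binding.

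Promoter stretches of 3 genes lower in all 9 pairs are shown for the E-box, in capitals as CAGGTG or its reverse complement CACCTG. Each ends at the base before the first listed RefSeq start in GRCm38.p6 and is written 5′ to 3′ on the gene's strand. Muc1 (chr3:89228806-89229055, plus strand) held 2 matches, beginning 234 and 70 bases before the start. Epcam (chr17:87635779-87635978, plus strand) held 2, at 187 and 19 bases. Ap1m2, the adaptor of epithelial basolateral sorting (chr9:21312334-21312433, minus strand), held 4, at 81, 51, 21 and 9 bases.
Muc1: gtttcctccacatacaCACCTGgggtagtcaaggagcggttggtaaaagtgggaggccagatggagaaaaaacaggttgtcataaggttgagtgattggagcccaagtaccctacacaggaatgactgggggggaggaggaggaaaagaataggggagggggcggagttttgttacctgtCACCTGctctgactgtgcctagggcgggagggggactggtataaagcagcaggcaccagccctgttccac
Epcam: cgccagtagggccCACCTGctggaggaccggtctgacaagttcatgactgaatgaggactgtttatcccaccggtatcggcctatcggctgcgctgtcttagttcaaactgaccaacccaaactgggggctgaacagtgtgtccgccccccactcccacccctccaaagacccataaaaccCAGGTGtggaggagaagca
Ap1m2: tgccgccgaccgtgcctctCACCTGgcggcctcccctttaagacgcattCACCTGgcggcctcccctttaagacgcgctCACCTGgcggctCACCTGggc

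For the half-site of the p53 family, in capitals, 2 genes higher in all 9 pairs are shown in the same way. Krt5 (chr15:101712906-101713055, minus strand) held 1 match, 95 bases before the start. Cdkn1a, the cell cycle inhibitor p21 and a classical p53 target (chr17:29090879-29090978, plus strand), held 2, at 73 and 51 bases, and stood at 562 to 2435 CPM in N and 150 to 1081 in ML (1.76 ± 0.21). The stretch of Krt5, a gene higher in N, also holds the E-box CAGGTG, left in lower case here.
Krt5: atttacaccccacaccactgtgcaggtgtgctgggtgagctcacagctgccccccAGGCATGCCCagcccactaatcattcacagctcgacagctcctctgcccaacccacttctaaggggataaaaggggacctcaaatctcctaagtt
Cdkn1a: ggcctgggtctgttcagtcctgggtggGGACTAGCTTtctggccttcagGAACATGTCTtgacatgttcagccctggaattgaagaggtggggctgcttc

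The list of p53 family and cell cycle inhibitor genes, which holds Trp63 and Cdkn1a, had 10 of 20 called higher and 2 lower, with 7 higher and 1 lower in all 9 pairs (median 0.48). Trp73, the gene of p73, stood at 6.31 to 56.4 CPM in N and 0 to 1.96 in ML (6.87 ± 0.69). Cdkn1c, the inhibitor p57, changed by 2.15 ± 0.23, and Bax, a death effector induced by p53, by −0.61 ± 0.12. Of 24 proliferation genes 1 was called higher and 1 lower, beside 13.2% and 13.6% of all genes tested, and none moved one way in all 9 pairs. Mki67 stood at 0.115 to 4.39 CPM in N and 0.387 to 16.9 in ML (adjusted p = 0.776).

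In the Notch pathway 7 of 25 were called higher and 3 lower (median 0.28), beside 13.2% and 13.6% of all genes tested. The higher ones in all 9 pairs were the ligands Dll1, Jag1 (1.73 ± 0.18) and Jag2, the ligand-like Dlk2 (3.92 to 90.8 CPM in N, 0 to 1.02 in ML, 7.46 ± 0.54), the glycosyltransferase Lfng (1.49 ± 0.16) and Numbl. The lower ones were the receptor Notch3, at 2.84 to 19.2 CPM in N and 28.5 to 43.5 in ML (−2.02 ± 0.22), and the targets Hey1 and Hes1. Hes1 was lower in 8 of 9 pairs (−0.87 ± 0.24, adjusted p = 0.0259), and its call was lost in 7 of 15 alternatives. The receptors Notch1 (−0.42 ± 0.21) and Notch2 (−0.41 ± 0.18) were not called (adjusted p = 0.168 and 0.129).

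Wnt ligands and R-spondins were called higher for 6 of 16 and lower for 5, with 3 each way in all 9 pairs (median 2.38). Their summed RNA was nonetheless higher in N in only 1 of 9 pairs, at 588 to 914 CPM in N and 818 to 1188 in ML. Wnt10a stood at 30.2 to 204 CPM in N and 0 to 19.8 in ML (6.29 ± 0.88), and Wnt6 changed by 4.45 ± 0.80. In the other direction Wnt5b stood at 24.7 to 112 CPM in N and 213 to 748 in ML (−2.40 ± 0.14), and Wnt7b changed by −1.55 ± 0.25. Receptors of the pathway were called higher for 9 of 19 and lower for 0 (median 0.57), and Fzd2, Fzd7 and Lgr5 were higher in all 9 pairs. Lgr5, an R-spondin receptor, stood at 27.4 to 981 CPM in N and 1.23 to 21.5 in ML (4.98 ± 0.56).

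Of 19 Wnt inhibitors, effectors and targets 7 were called higher and 1 lower, with 4 and 1 in all 9 pairs (median 0.80). The 4 were secreted or membrane inhibitors, Sfrp1, Dkk3 (4.97 ± 0.29), Apcdd1 (3.25 ± 0.34) and Wif1, and the 1 lower was the nuclear effector Tcf7l2 (−1.33 ± 0.20). Axin2, a standard target, stood at 0.0503 to 3.44 CPM in N and 0.0506 to 1.96 in ML and was not called (adjusted p = 0.325).

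ErbB genes were called higher for 9 of 18 and lower for 5, with 4 and 3 in all 9 pairs (median 0.96). The ligands went both ways, with Epgn (4.0 ± 0.35), Nrg1 (2.18 ± 0.17) and Nrg2 (2.02 ± 0.31) higher in all 9 pairs, Btc, betacellulin (−2.28 ± 0.33), lower in all 9 and Nrg4 lower in 8 (−1.79 ± 0.36). Among the receptors, Egfr was higher in 8 of 9 pairs (1.07 ± 0.21), Erbb2 was lower in 7 of 9 (−0.59 ± 0.14), and Erbb3 (−1.49 ± 0.16) and Erbb4 (−3.43 ± 0.30) were lower in all 9. Erbb4 stood at 0.641 to 10.9 CPM in N and 10.5 to 58.4 in ML.

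TGF-beta and BMP genes were called higher for 17 of 31 and lower for 3, with 11 and 2 in all 9 pairs (median 0.89). They included the coreceptor Tgfbr3, at 102 to 242 CPM in N and 13.1 to 40.4 in ML (2.87 ± 0.19), the ligand Bmp2 (3.14 ± 0.24) and the activin-binding Fst, follistatin, at 89.6 to 376 against 2 to 42.2 CPM (4.85 ± 0.39). Axon guidance ligands, which also steer epithelial ducts, were called higher for 10 of 23 and lower for 3. Ntn1, netrin-1, stood at 3.35 to 22.6 CPM in N and 57.4 to 212 in ML (−3.52 ± 0.26), Sema4d changed by −1.60 ± 0.12 and Sema5a by 2.86 ± 0.32.

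Of 25 genes of tight and adherens junctions 12 were called lower and 2 higher (median −0.42), with 7 lower in all 9 pairs, among them Cldn3 and Cgn, cingulin (−1.91 ± 0.22). Desmosomal genes were called higher for 8 of 13 and lower for 1 (median 0.77). Dsc3 (5.30 ± 0.85), Dsg3 (4.50 ± 0.76), Pkp1 (1.68 ± 0.16) and Perp (2.17 ± 0.14), parts of desmosomes of stratified epithelium, were higher in all 9 pairs. Pkp2, the plakophilin of simple epithelium, stood at 4.78 to 46.5 CPM in N and 55.3 to 99.4 in ML and was lower in all 9 (−2.58 ± 0.29).

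Of 15 genes of epithelial proteases, their inhibitors and polarised transport, 10 were called lower and 1 higher, and 9 were lower in all 9 pairs (median −1.26). The membrane serine proteases St14 (−1.38 ± 0.14) and Prss8 (−2.18 ± 0.22), which act in one cascade, and their inhibitors Spint1 (−1.62 ± 0.14) and Spint2 (−0.86 ± 0.13) were all among the 9. Ap1m2, whose promoter stretch is shown above, stood at 54.5 to 158 CPM in N and 164 to 229 in ML (−1.26 ± 0.15). Genes of luminal transport were called lower for 14 of 23 and higher for 4, with 10 lower in all 9 pairs (median −2.0), and without the pair terms 1 was called higher. The 10 included the sodium channel subunit Scnn1a (−2.07 ± 0.23) and the scaffold Slc9a3r1 (−1.83 ± 0.16).

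**Figure D4:**
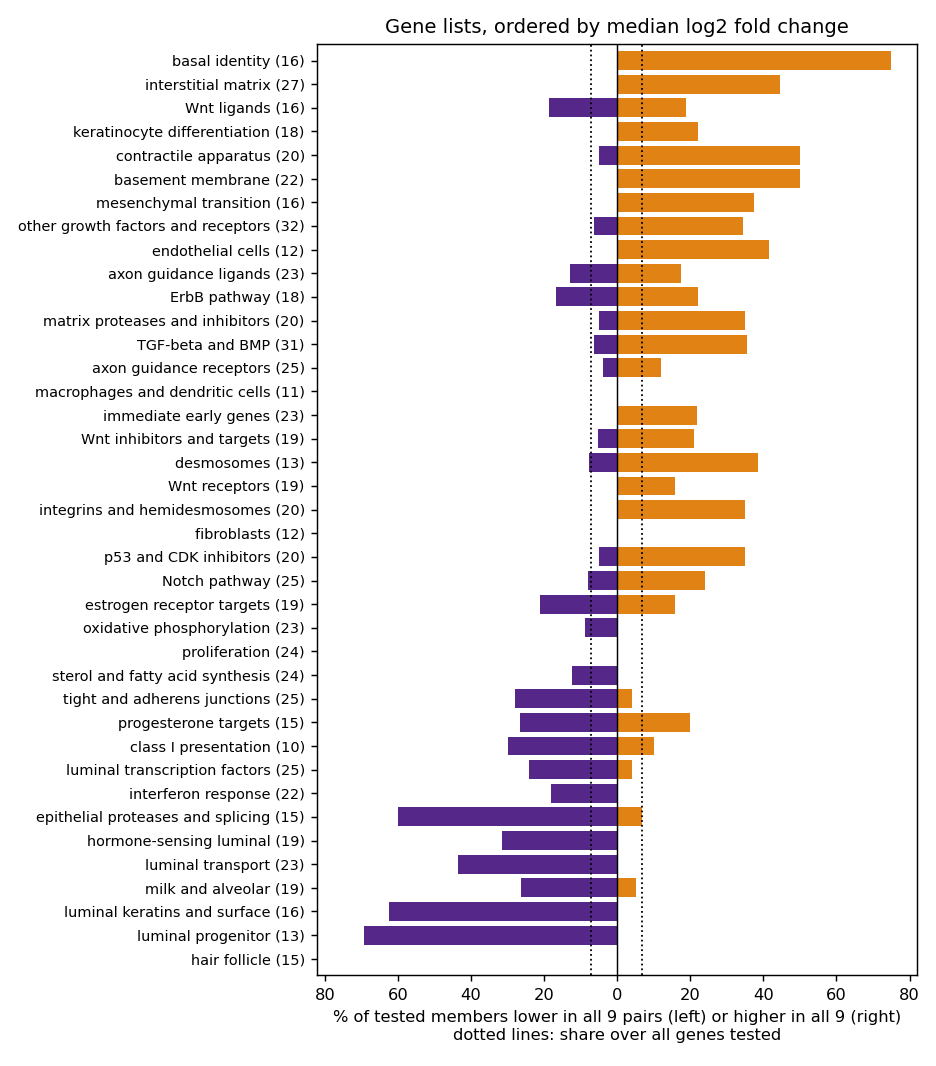
Share of the tested members (number in brackets) of each list of at least 10 genes that were lower in all 9 pairs (left, purple) or higher in all 9 (right, orange), ordered by median log2 fold change. Basal identity (12 of 16) and luminal progenitor genes (9 of 13) reach farthest from the dotted background of 6.73% and 7.07%, while Notch, Wnt ligand and ErbB genes extend to both sides.

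Immediate early genes, which respond within minutes to growth factors and to handling of cells, were called higher for 12 of 23 and lower for 0, with 5 higher in all 9 pairs (median 0.81). Egr2 stood at 207 to 924 CPM in N and 57.3 to 178 in ML (2.59 ± 0.19), and Myc at 438 to 1381 against 141 to 315 (1.77 ± 0.17). Fos (0.26 ± 0.19), Jun (0.29 ± 0.17) and Atf3 (0.05 ± 0.14) were not called (adjusted p = 0.354, 0.239 and 0.819). Whether the 2 sorts differed in handling was not tested. Interferon response genes were called lower for 13 of 22 and higher for 1, with 4 lower in all 9 pairs (median −0.96), among them Irf7, at 10.8 to 43.7 CPM in N and 25.1 to 73.6 in ML (−1.24 ± 0.20). The summed RNA of the interferon list was not lower throughout. It was higher in N in 5 of 9 pairs, at 747 to 1486 CPM in N and 828 to 1313 in ML.

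Markers of other cell types were counted for the same pairs, beside 13.2% called higher and 13.6% lower over all genes tested. Endothelial genes were called higher for 9 of 12 and lower for 1, and 5 were higher in all 9 pairs. Their sum was 190 to 1091 CPM in N and 129 to 395 in ML and was higher in N in 6 of 9 pairs. The defining Pecam1 stood at 26.6 to 218 CPM in N and 5.09 to 60.1 in ML (1.29 ± 0.27), Cdh5 changed by 1.55 ± 0.29, and Vwf was lower (−1.62 ± 0.29). Pericyte genes were called higher for 3 of 8 and lower for 1, and summed to 107 to 433 CPM in N and 61.6 to 125 in ML. Mcam, shared by pericytes and myoepithelium, changed by 2.63 ± 0.20, and Rgs5 was not called. All 12 endothelial and all 8 pericyte markers passed the filter on low counts, and the part of such cells in the contractile and matrix results was not tested. Fibroblast genes were called higher for 3 of 12 and lower for 1 and macrophage genes for 0 of 11, and none of either list moved one way in all 9 pairs. Mast cell and neutrophil genes were called higher for 4 of 6 and lower for 0, among them Tpsb2 (3.70 ± 0.84) and Cma1 (3.51 ± 0.88), and summed to 2.52 to 74.7 CPM in N and 0.0713 to 20.7 in ML, higher in N in 8 of 9 pairs. The sum of adipocyte genes was higher in N in all 9 pairs, at 103 to 625 against 69.9 to 252 CPM, with 1 of 7 called, Fabp4 (1.21 ± 0.16). The sum of T and NK cell genes was also higher in all 9, at 7.08 to 40.8 against 3.02 to 9.85 CPM, with 1 of 8 called, Trbc2 (2.57 ± 0.28). The part of these cells in the results was not tested.

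The rule of 9 pairs has a sharp edge. Of the 2526 genes inside it, 658 had a weakest pair under 0.1 on log2(CPM + 1). Just outside, 1694 called genes moved one way in exactly 8 pairs, 821 higher and 873 lower, and in 528 of them the last pair lay within 0.1 of 0. The exception was WT 3 for 561 of the 1694 and Y541S 2 for 324. WT 3 was also the pair with the smallest difference for 347 of the 1232 higher and 476 of the 1294 lower genes. Its median difference over the higher genes was 0.78 against 1.09 to 1.67 in the other pairs, and over the lower ones −0.47 against −1.24 to −0.81. Without WT 3, 1686 genes were higher and 1752 lower in the 8 pairs that remained, and the set at least 2-fold lower in every pair held 242 genes in place of 102.

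**Figure D5:**
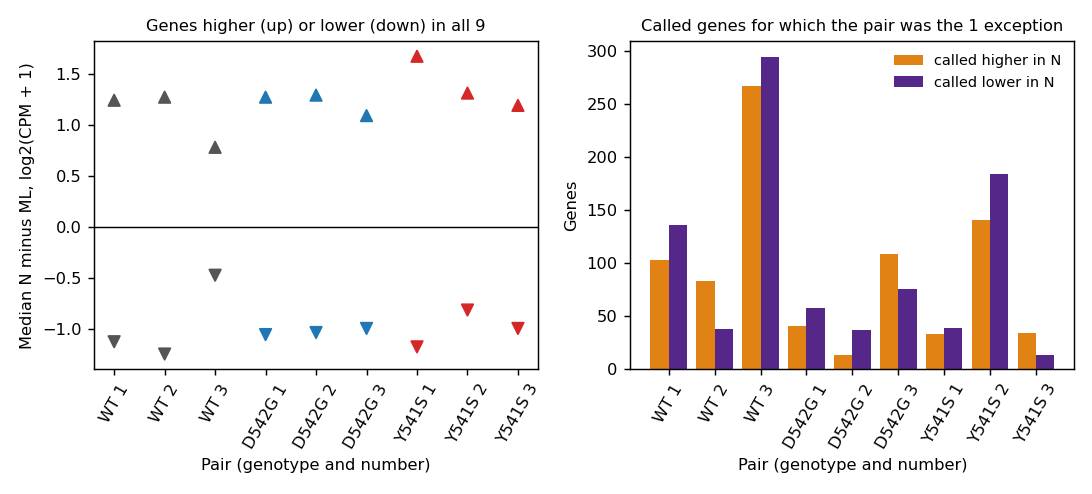
Left, the median N minus ML difference, on log2(CPM + 1), of the genes higher (upward triangles) or lower (downward triangles) in all 9 pairs, for each pair. Right, the number of called genes that moved one way in all pairs but the one named, with WT 3 at 267 and 294 and D542G 2 at 13 and 37.

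Genes with 1 exceptional pair were named by the size of their fold change. Hs6st2, a heparan sulfate sulfotransferase, stood at 105, 108 and 115 CPM in D542G N, 7.73 to 8.15 in Y541S N and 0.604, 1.32 and 15.3 in WT N, against 0 to 1.78 in ML, and WT 1 was the exception (5.20 ± 1.03). Rasgrp1, an activator of Ras, was higher in all pairs but Y541S 2 (5.17 ± 1.22, adjusted p = 0.0132), with 55.8 and 89.8 CPM in WT N 1 and WT N 2 and 0 to 28 in the others. Il1r2, the decoy receptor of interleukin 1, was higher in all but Y541S 1, with 189 to 254 CPM in WT N 1, WT N 2 and Y541S N 3 and 0 to 26.3 in the rest (4.70 ± 1.28, adjusted p = 0.0249). Those 3 libraries are also the ones richest in keratinocyte genes. Skint1, a gene of epidermis and thymus, was higher in 8 pairs and at 0 in both libraries of Y541S 2 (4.62 ± 0.43). The calls of Rasgrp1 and Il1r2 were lost in 2 and 5 of 15 alternatives.

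On the lower side Ctsj and Ctsr, cathepsins of a clustered family whose reads may be shared, were lower in all pairs but WT 3. Ctsr stood at 1011 and 1175 CPM in D542G ML 1 and D542G ML 2 and at 1.63 to 55.4 in the other ML libraries, and at 0 to 40 in N (−4.68 ± 0.48). Col9a1, a collagen of cartilage, was lower in all but D542G 1 (−4.81 ± 1.27, adjusted p = 0.0218), a call lost in 3 of 15 alternatives. Ighg2b, an immunoglobulin heavy chain made by plasma cells, had counts in 8 of 9 ML libraries, at up to 701 CPM, and in 1 of 9 N libraries, at 0.327 CPM, so no fold is given. Genes of B and plasma cells summed to 0.713 to 2927 CPM in ML and 0.201 to 99.8 in N, and 0 of 6 tested were called.

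The size of the gate effect was then compared between genotypes in the same fit. It differed at an adjusted p under 0.05 for 10 genes (0.0547%) and at an unadjusted p under 0.05 for 1997 (10.9%). The 10 became 39 without pair WT 3, and edgeR called 0 without WT 1, WT 2, D542G 3 or Y541S 2, 1 without D542G 1 or D542G 2, and 2 without Y541S 3. Only 1 of the 10 moved one way in all 9 pairs, Anpep, the aminopeptidase CD13. It stood at 21.7 to 64.1 CPM in N and 69.2 to 236 in ML, and its pair differences were −1.89 to −1.45 in WT, −0.47 to −0.38 in D542G and −2.54 to −2.18 in Y541S (adjusted p = 0.0431). Kcnn4, a calcium-activated potassium channel, was lower by 3.08 to 4.53 in the WT pairs, lower by 1.93 to 2.50 in Y541S and between −0.08 and 0.69 in D542G (adjusted p = 0.0431). Of the 2526 genes that moved one way in all 9 pairs, 367 had an unadjusted p under 0.05 for a difference between genotypes. For the other genes a difference in size between genotypes was not shown, which does not mean that the sizes were equal.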

How the data were processed

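The authors deposited a count per gene for each of 18 libraries, read as whole-number counts, made on GRCm38 per the submitters' processing notes. For the aligner, counter, annotation and strand setting, each is not given in the sources used here. Libraries came from sorted cells and the Nextera XT kit, per the labels. Of 52636 identifiers 52489 matched GENCODE M21. Many genes that overlap another gene hold few or no counts, so values of overlapping genes are uncertain, and a gene at 0 in every library was not read as silent. Of the 2526 genes that moved one way in all 9 pairs, 1190 overlap another gene. Among them are Col7a1, Dll1, Jag2, Camk4, Slco1a5 and Cytip.

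Genes were kept by filterByExpr (minimum count 10, minimum total 15), leaving 18298, and scaled by TMM (factors 0.850 to 1.10). In edgeR 4.0.16 (R 4.3.3) a quasi-likelihood model with 9 pair terms and a gate effect per genotype had 6 residual degrees of freedom (biological coefficient of variation 0.537). The labels' numbers were taken to pair N with ML because deviations from group means correlated at 0.168 to 0.556 within all 9 pairs, against −0.456 to 0.193 between other numbers (10000 genes). That evidence comes from the data. Deviations within a group cancel out, so high values within pairs draw down those between other numbers. Pair WT 2 was not set apart. WT ML 2 correlated at 0.168 with WT N 2 and at 0.165 with WT N 1, and WT N 2 at 0.193 with WT ML 1. WT ML 1 and WT N 1 correlated at 0.377. The fit was tested on simulated data.

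Named were the 12 highest and 12 lowest genes by weakest pair and 4 and 4 with 1 exception, all called and at an average log2 CPM of at least 3. Also named were up to 4 members of each list by p, and set genes of identity and hormone response. Others were chosen after their values were seen. The members and lists were chosen with earlier results of these data known. Alternatives were no pair terms, 1 gate effect, RLE scaling, no filter, DESeq2 1.42.0, limma-voom 3.58.1 and each pair left out. Promoters came from RefSeq (GRCm38.p6), with the first listed start of each gene.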

Additional observations from a re-analysis of the deposited data

Results flagged for a closer look

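A single pair lay far from the other 8 for 9 of 154 named genes, by a rule that chance meets in about 1 of 20 groups. In D542G 3 the difference on log2(CPM + 1) was −6.46 for Kit, −6.90 for Ltf, −6.25 for Slc5a7, −4.67 for Enpp3 and −7.15 for Aldh1a3, each lower than in any other pair. In WT 3 it was the closest to 0, at 0.66 for Itga3, −0.60 for Pkp2, −0.80 for Prss8 and −0.60 for Slc9a3r1. Of the other 8 pairs Itga3 lay at 1.55 to 2.19 and Pkp2 at −3.28 to −2.07.

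The gate effect differed between genotypes for Kcnn4 and Anpep (each adjusted p = 0.0431). For Esr1 every D542G pair was higher in N, by 0.56 on average, and every WT pair lower, by −2.49 on average, and the test of the difference was not passed (adjusted p = 0.34).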

How the results depend on the processing

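The counts of called genes stayed within 1.5 times of 2417 higher and 2486 lower without the replicate block (2532 and 2490, with 4228 genes shared), with 1 common gate effect (2249 and 2340), RLE scaling (2502 and 2399), DESeq2 (3366 and 3475), limma-voom (3605 and 3565) and no filter (2184 and 2218). Leaving out each pair gave 1799 to 2929 higher and 1699 to 2808 lower. Genes whose gate effect differed between genotypes numbered 10, but 26 without the replicate block, 158 by limma-voom and 0 to 39 with a pair left out, 39 of them without WT 3. Genes at least 2-fold lower in every pair numbered 104 to 242 with a pair left out, 242 of them without WT 3, and 75 and 116 at pseudocounts of 4 and 0.5. Without scaling beyond the library total 1080 genes were higher and 1438 lower in all 9 pairs. Of 143 named genes called, 130 kept the call in all 15 alternatives, and of 2310 recomputed values none of a called gene changed sign. The sign changed for Areg (−0.27 to 0.17), Mki67 (−0.93 to 0.16) and Zeb1 (−0.20 to 0.37), which were not called. Counts of called list members were also taken without WT 3 and without Y541S 2, chosen after seeing the data, and of counts of 4 or more, either way, one moved by over 1.5 times (genes of oxidative phosphorylation called lower, 3 and 5 without WT 3). DESeq2 was not run for the difference between genotypes. The 6 residual degrees of freedom and the low counts of genes near 0 limit precision.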

Other observations

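The growth factor genes Bdnf and Ntf3, which act on neurons, were noticed only after their values were seen. Bdnf changed by 3.19 ± 0.51 and Ntf3 by 2.36 ± 0.45, each higher in all 9 pairs.

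Foxi1, a transcription factor of proton-secreting cells that is known to switch on Atp6v1b1, was also noticed after its values were seen. It stood at 0.844 to 12.5 CPM in N and 20.6 to 176 in ML and was lower in all 9 pairs, by 2.20 to 4.75 on log2(CPM + 1) (log2 fold change −3.92 ± 0.27, adjusted p = 6.28e-05).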
